A study of Mus musculus with 9 samples.

Results

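The genes described here are 51 components and regulators of bone morphogenetic protein (BMP) and transforming growth factor beta (TGF-beta) signalling, found by symbol among 43644 genes measured in the coronal suture of the mouse skull. They comprise 15 ligands, 11 receptors, 12 Smads and intracellular regulators, 9 extracellular antagonists and decoys, and 4 latency proteins. All mice were C57BL/6 and 7 months of age, and every group gave 3 RNA-seq libraries of total RNA. WT mice were wild type and had no surgery. MUT mice were Twist1+/- without surgery, and REG mice were Twist1+/- animals that had been operated on at the age of 1 month to regenerate the suture. Twist1 encodes a transcription factor of the mesenchyme, and loss of a single copy is a known cause of coronal suture fusion. The labels do not give the origin of the Twist1 allele, the material used in the surgery, or whether each library came from its own animal.

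BMP and TGF-beta ligands are secreted dimers that bring together type I and type II serine/threonine kinase receptors, and these phosphorylate receptor Smads that enter the nucleus with Smad4. Extracellular antagonists hold BMPs or activins away from their receptors, and latent TGF-beta binding proteins keep TGF-beta stored in the matrix until it is released. In cranial sutures, BMPs are known for driving osteoblast differentiation at the bone fronts, Noggin for keeping the suture open, and TGF-beta isoforms for opposing roles in fusion and patency.

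The libraries did not stand on an equal footing, and the difference followed the groups. Estimated reads on genes were 16356391 to 20019712 in WT, 2945636 to 10894209 in MUT and 18276494 to 39377876 in REG. The level of 1744 olfactory and vomeronasal receptor genes, a family of odorant detectors of the nose, taken as median reads per kb of exon, served as a background. Spread over all genes, it corresponded to 0.575% to 0.805% of the reads in WT, 7.00% to 22.2% in MUT and 0.479% to 0.767% in REG. Mitochondrially encoded protein genes (13) took 1.09% to 1.57% of reads in WT, 0.217% to 0.363% in MUT and 0.648% to 1.29% in REG. The summed values of 5 B cell markers were 6.93 to 35.7 in WT and 286 to 1581 in MUT, those of 5 keratinocyte markers 6.62 to 10.2 and 44.9 to 246, and those of 5 neuronal markers 4.52 to 9.69 and 33.8 to 80.2. In REG the same sums were 31.0 to 81.8, 3.20 to 6.91 and 3.10 to 18.4, and no marker was at 0 reads in all libraries. Skeletal muscle markers summed to 228 and 289 in REG replicates 1 and 2, 35.9 in REG replicate 3, 5.25 to 59.3 in WT and 10.1 to 21.2 in MUT. Twist1 itself stood at 16.2, 23.3 and 23.1 in WT, against 0.987, 8.08 and 0.548 in MUT and 3.76, 9.19 and 12.2 in REG, so all Twist1+/- libraries lay below all WT libraries. Of the markers, 2 of 5 for B cells, 1 of 5 for keratinocytes and 3 of 5 for neurons were called higher in MUT than in WT, and 4 of 5 for muscle higher in REG than in MUT. Of all genes tested, 20.5% were called higher in MUT than in WT and 11.8% higher in REG than in MUT. The keratinocyte count was thus near the share of all genes. The keratinocyte sum in MUT was nearly all Trp63, at 39.6, 243 and 104, while Krt10 was called lower (adjusted p = 0.0458) and Krt5, Krt14 and Krt1 were not called. The part of these differences in the results on the pathway was not tested.

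All values are the deposited signal: estimated reads plus 1, scaled so that the upper quartile is alike in every library. Log2 changes come from limma on log2(value + 0.367) with the SE of the fit, and a gene was called at a Benjamini-Hochberg adjusted p under 0.05 over 29107 genes tested. All 51 members passed the low-value filter of 0.367 in at least 3 libraries, and 47 were at or above it in all 9. MUT vs WT and REG vs MUT share the MUT libraries, so opposite changes in these comparisons are not independent of each other. In bulk tissue, fewer cells of a type and less RNA per cell cannot be told apart.

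Between MUT and WT, most of the 51 members were lower in MUT, and the fall reached every role class. Of the 51 members, 31 fell, 2 rose and 18 were not called. Among all genes tested, 14.6% were called lower and 20.5% higher. The median log2 change was -1.90 over the members and 0.18 over all genes. The 31 comprised 8 of 15 ligands, 7 of 11 receptors, 8 of 12 Smads and intracellular regulators, 5 of 9 antagonists and 3 of 4 latency proteins. Ltbp2, a matrix protein of the fibrillin family, fell the most (-4.60 ± 0.52), and the BMP antagonist Grem1 rose the most (2.78 ± 0.58). WT and MUT libraries did not overlap for any of the 33 called members. The share of all called genes without overlap was not computed, so this is not shown to be particular to the members.

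Between REG and MUT, 24 members rose and 4 fell, with 23 not called, beside 11.8% of all genes called higher and 24.8% called lower. The median log2 change was 1.42 over the members and -0.36 over all genes. The members that rose were 6 ligands, 5 receptors, 6 Smads and intracellular regulators, 4 antagonists and 3 latency proteins. Grem1, the receptor Bmpr1b and the ligands Gdf5 and Gdf6 fell. The groups did not overlap for the 4 that fell and for 22 of the 24 that rose. The exceptions were Smurf2, an E3 ubiquitin ligase that targets Smads and receptors, and the antagonist Nbl1. Here too the share over all called genes was not computed. The counts rested on the scaling and on single libraries: scaled to total reads, 13 members fell (2.89% of all genes) and 5 rose (38.7%) in MUT vs WT, and 6 rose (3.24%) and 6 fell (37.7%) in REG vs MUT. Without MUT replicate 1, 12 members rose in REG vs MUT (6.94% of all genes), and without MUT replicate 3, 14 did (6.15%). Without REG replicate 2, members called higher there in addition included Tgfb1, Tgfbr3, Smad4, Smurf1, Tgif1 and Chrdl1. Among the members described by library, Bmpr1a, Bmpr2, Tgfbr2 and Skil lost both calls under quantile scaling, total-read scaling and background subtraction, Tgfbr3 its MUT vs WT call, and Smad3, Smad7, Ltbp3 and Ltbp4 their REG vs MUT call. Smad6 lost both calls after background subtraction and the latter also with total-read scaling, Bmpr1b lost both with quantile scaling, Nog and Fstl3 lost the MUT vs WT call with total-read scaling, and Gdf5 lost its call with trimmed-mean and quantile scaling and after background subtraction.

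**Figure D1:**
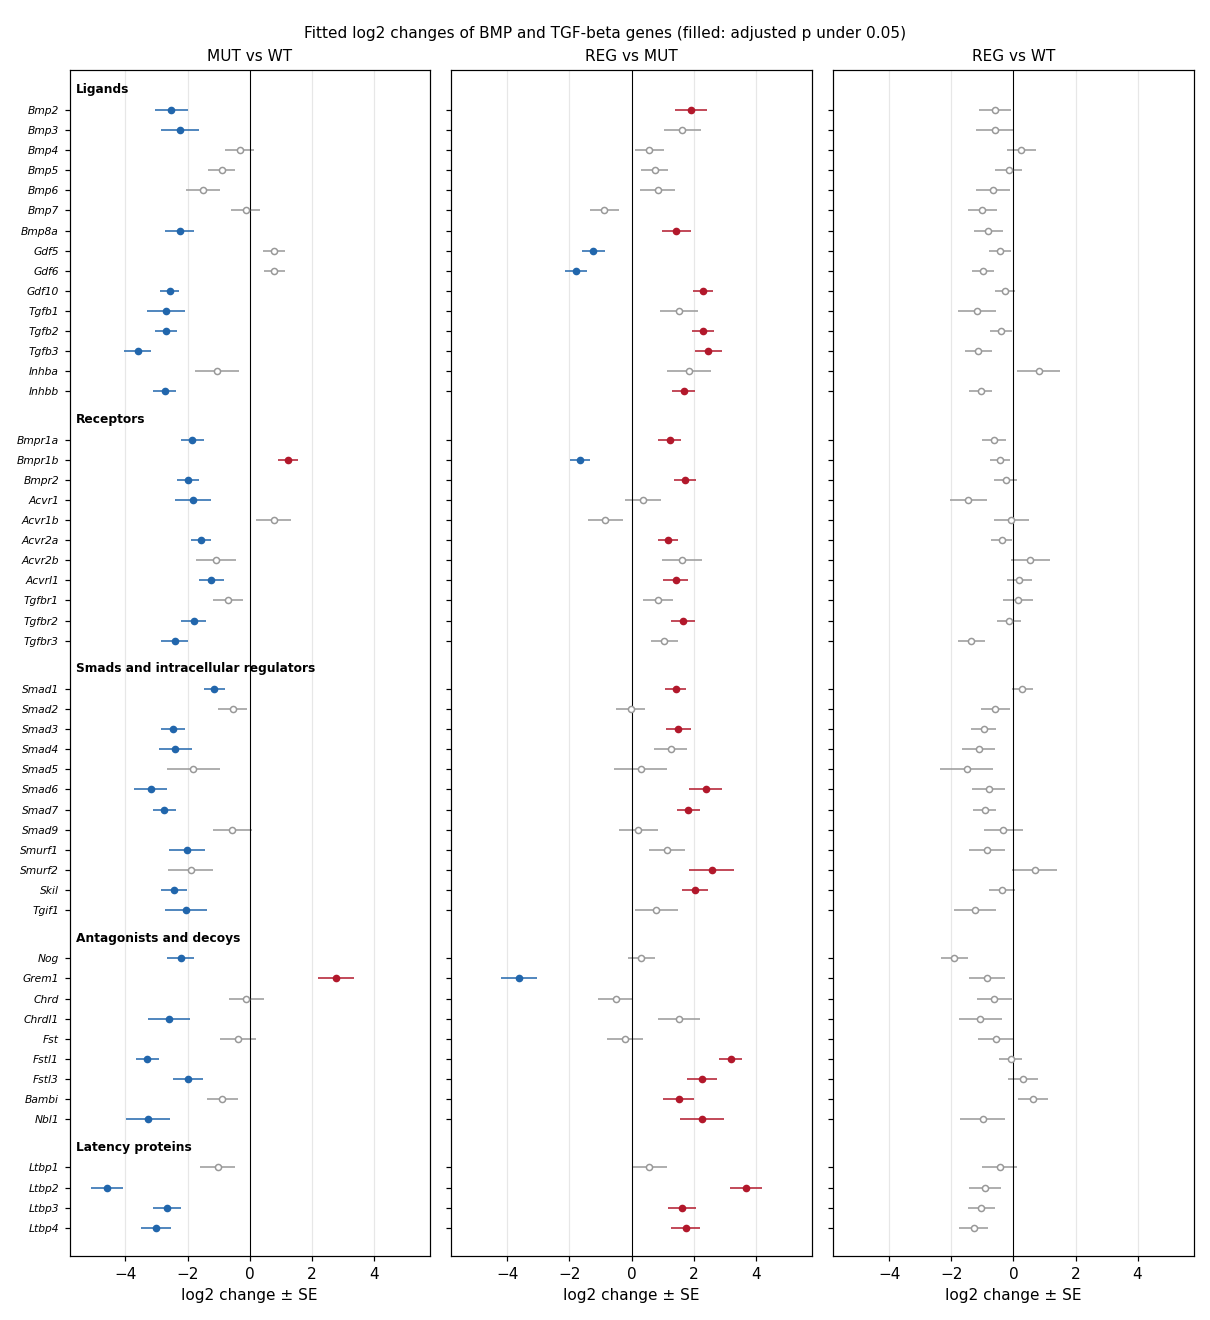
Fitted log2 change of each of the 51 genes (rows, grouped by role) in the 3 comparisons (panels), with bars of 1 SE and filled points where the adjusted p is under 0.05. Filled points lie left of 0 in the left panel except Bmpr1b and Grem1, right of 0 in the middle panel except Gdf5, Gdf6, Bmpr1b and Grem1, and there is no filled point in the right panel.

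The promoter sequence of Grem1, the member with the largest rise, and of Ltbp2, Fstl1 and Tgfb2, which fell in MUT and rose in REG vs MUT, is given as the 250 bases before the annotated start (RefSeq, GRCm38.p6), 5′ to 3′ on the gene's own strand. Capitals mark matches to 3 motifs searched on both strands: the Smad-binding element CAGAC (or GTCTG), the GC-rich element GGCGCC known from BMP-responsive genes, and the E-box CATCTG (or CAGATG), of a kind bound by basic helix-loop-helix factors such as Twist1.
Grem1 (chr2:113758649-113758898, minus strand): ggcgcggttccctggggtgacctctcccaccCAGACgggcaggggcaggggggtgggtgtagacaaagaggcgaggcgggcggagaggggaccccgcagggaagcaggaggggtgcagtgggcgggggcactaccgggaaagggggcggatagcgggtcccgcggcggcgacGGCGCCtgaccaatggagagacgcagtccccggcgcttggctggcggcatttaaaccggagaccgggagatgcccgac
Ltbp2 (chr12:84876492-84876741, minus strand): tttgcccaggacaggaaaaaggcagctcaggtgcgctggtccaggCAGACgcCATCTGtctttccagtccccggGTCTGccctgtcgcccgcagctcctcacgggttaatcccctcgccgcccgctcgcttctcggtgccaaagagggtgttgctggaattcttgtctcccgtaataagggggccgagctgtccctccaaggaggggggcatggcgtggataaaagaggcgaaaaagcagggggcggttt
Fstl1 (chr16:37776805-37777054, plus strand): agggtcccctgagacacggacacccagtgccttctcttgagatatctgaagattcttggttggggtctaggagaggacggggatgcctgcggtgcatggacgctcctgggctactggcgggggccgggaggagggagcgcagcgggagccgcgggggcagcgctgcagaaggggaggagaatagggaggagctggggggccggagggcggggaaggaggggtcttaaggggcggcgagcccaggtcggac
Tgfb2 (chr1:186705990-186706239, minus strand): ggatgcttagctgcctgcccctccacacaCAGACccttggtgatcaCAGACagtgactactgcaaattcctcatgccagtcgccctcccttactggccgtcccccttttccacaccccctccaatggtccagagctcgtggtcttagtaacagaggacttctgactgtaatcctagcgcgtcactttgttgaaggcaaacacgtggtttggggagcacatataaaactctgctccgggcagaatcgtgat
The Grem1 window holds 1 Smad-binding element and 1 GC element. The Ltbp2 window holds 2 Smad-binding elements and 1 E-box, the Tgfb2 window 2 Smad-binding elements, and the Fstl1 window none of the 3, and no matches overlap each other. RefSeq promoter entries were matched for 35 of the 51 members, with 47 windows. CAGAC was found in 23 of these windows (48.9%) and in 42.2% of all 32851 windows, GGCGCC in 11 (23.4%) against 9.59%, and CATCTG in 5 (10.6%) against 14.4%. These matches are descriptions of sequence; binding was not measured, and base composition was not compared.

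Among the ligands, the 3 TGF-beta genes, several BMPs and the activin beta B gene fell in MUT. Called lower were Bmp2, Bmp3, Bmp8a, Gdf10, Tgfb1, Tgfb2, Tgfb3 and Inhbb, and the class median was -2.24. Per kb of exon, WT levels ran from 0.329 for Gdf5 to 22.4 for Bmp8a, with Tgfb3 at 11.3 and Tgfb1 at 10.05. Tgfb3, known for keeping sutures patent, measured 23.1, 49.0 and 42.9 in the WT libraries, 2.59, 2.71 and 2.74 in the MUT libraries and 21.1, 9.34 and 22.5 in the REG libraries. Every MUT library lay below every library of the other groups, and the 3 MUT values were nearly equal. In MUT, Tgfb3 was at 2.29, 3.74 and 2.86 times the receptor-gene background of the library. The log2 change was -3.60 ± 0.44 in MUT vs WT (adjusted p = 0.00115) and 2.47 ± 0.44 in REG vs MUT (adjusted p = 0.00363). Gdf10, a BMP3-related ligand, measured 18.2, 21.7 and 20.2 in WT, against 3.29, 2.39 and 3.54 in MUT and 13.9, 17.7 and 18.0 in REG. Its replicates were close together within each group, and the MUT libraries stood apart below. In MUT, Gdf10 was at 1.90, 2.25 and 2.42 times background. It changed by -2.58 ± 0.32 (adjusted p = 0.0012) and 2.30 ± 0.32 (adjusted p = 0.00166). Tgfb2, the isoform known for promoting suture fusion, measured 18.9, 25.0 and 21.8 in the WT libraries, 3.92, 2.63 and 2.84 in the MUT libraries and 11.6, 21.5 and 18.1 in the REG libraries. MUT lay below the other groups without overlap, and WT and REG overlapped. In MUT, Tgfb2 was at 2.04, 2.25 and 1.75 times background. The change was -2.68 ± 0.35 (adjusted p = 0.0014) and 2.29 ± 0.35 (adjusted p = 0.00236).

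In REG vs MUT, Bmp2, Bmp8a, Gdf10, Tgfb2, Tgfb3 and Inhbb rose, with a class median of 1.52. Gdf5 and Gdf6, ligands known from joint formation, went the other way. Gdf6 measured 1.39, 1.15 and 1.07 in WT, against 2.81, 1.72 and 2.68 in MUT and 0.293, 0.324 and 0.707 in REG. The 3 groups were fully separated, with MUT on top and REG at the bottom. REG vs MUT was -1.79 ± 0.35 (adjusted p = 0.00508), and MUT vs WT was 0.80 ± 0.35 and not called (adjusted p = 0.0992). Gdf5 measured 0.838, 0.448 and 1.00 in the WT libraries, 1.23, 1.23 and 2.35 in the MUT libraries and 0.472, 0.408 and 0.469 in the REG libraries. MUT was above both other groups, and WT and REG overlapped. REG vs MUT was -1.23 ± 0.36 (adjusted p = 0.0245), and the call was lost without MUT replicate 1 or 3 (adjusted p = 0.0834 to 0.172). Relative to the receptor-gene background of their library both genes were lowest in MUT, at 1.58 to 3.55 times, against 5.19 to 10.2 times in WT and 3.40 to 8.01 times in REG. In addition, 40.3% of Gdf5 exon bases overlap another gene on the opposite strand. Among the other calls, that of Bmp8a in REG vs MUT was lost on leaving out any of 7 libraries (adjusted p = 0.0569 to 0.141), that of Bmp2 there without MUT replicate 2 (adjusted p = 0.0531), and that of Bmp3 in MUT vs WT without WT replicate 2 or 3 or MUT replicate 1 or 3 (adjusted p = 0.0581 to 0.082). Called in no comparison were Bmp4 (4.23 ± 1.5 in WT, 3.49 ± 2.08 in MUT, 5.08 ± 1.78 in REG; mean ± SD, n = 3 here and below), Bmp5 (2.25 ± 0.674, 1.06 ± 0.447, 2.12 ± 1.24), Bmp6 (6.59 ± 1.29, 2.19 ± 0.913, 4.87 ± 3.53), Bmp7 (2.47 ± 1.01, 2.16 ± 0.627, 1.10 ± 0.748) and Inhba (15.4 ± 9.71, 6.34 ± 2.51, 28.1 ± 19.5). Without REG replicate 2, Bmp6 was called lower in MUT vs WT (adjusted p = 0.0149) and higher in REG vs MUT (adjusted p = 0.0294), and Inhba was called higher in REG vs MUT without REG replicate 3 (adjusted p = 0.0179) or WT replicate 1 (adjusted p = 0.0474).

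**Figure D2:**
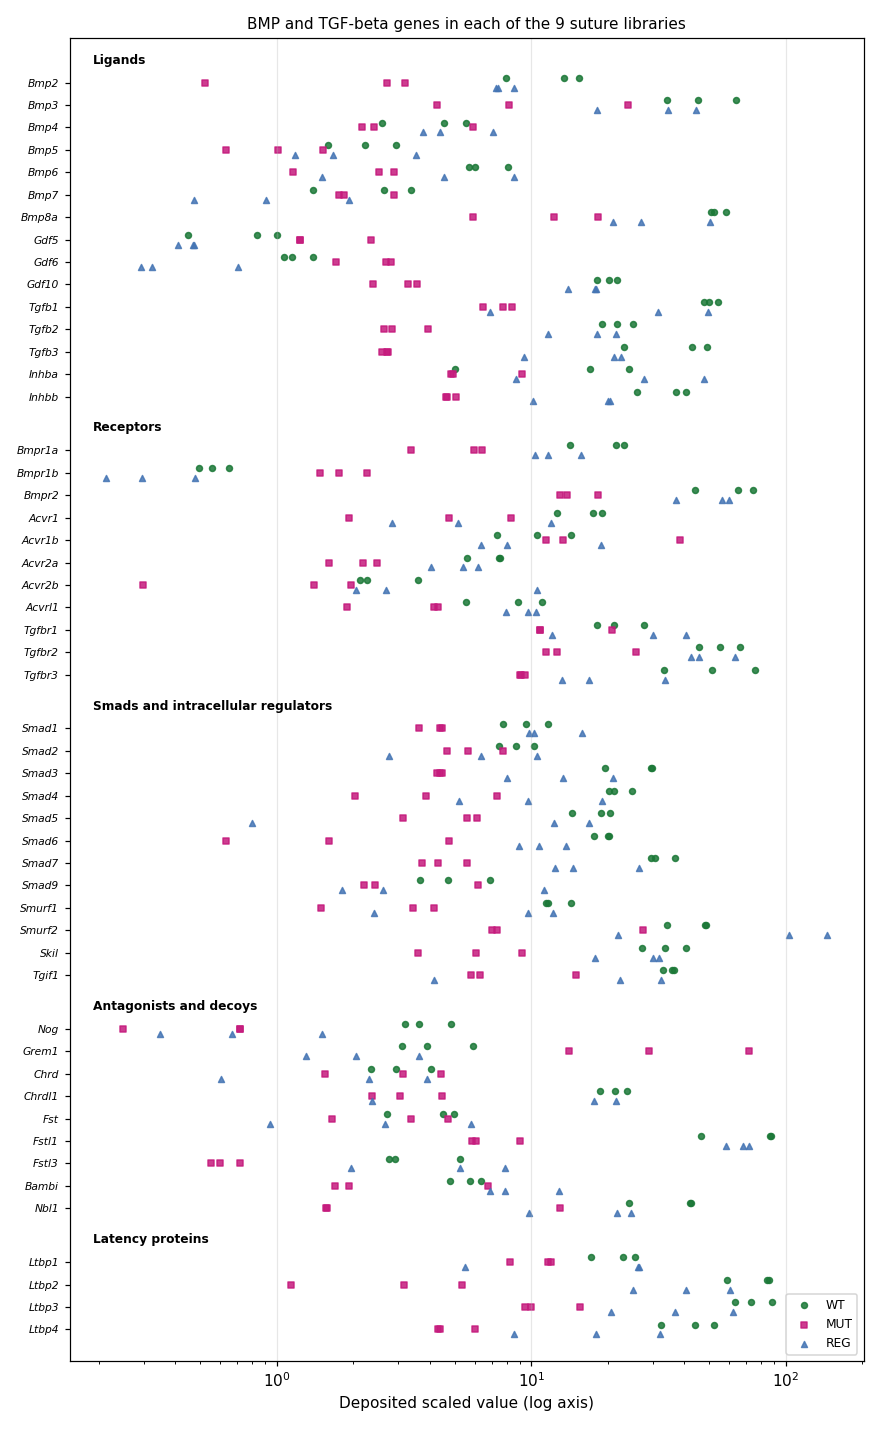
Deposited scaled value (log axis) of each of the 51 genes in each of the 9 libraries, grouped by role, with circles for WT, squares for MUT and triangles for REG. For Ltbp2, Fstl1 and Tgfb3 the MUT squares lie left of all other points, and for Grem1 they lie right of all other points.

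The receptors changed less than the other classes in MUT vs WT, with a median of -1.56, against -1.97 to -2.84 in the other classes; the classes were not tested against each other. Bmpr1a, Bmpr2, Acvr1, Acvr2a, Acvrl1, Tgfbr2 and Tgfbr3 fell, and Bmpr1b rose. WT levels per kb ran from 0.0951 for Bmpr1b to 8.19 for Tgfbr3. Tgfbr3, the co-receptor betaglycan that presents TGF-beta to its receptors, measured 33.2, 76.0 and 51.5 in WT, against 9.16, 9.04 and 9.49 in MUT and 16.9, 13.2 and 33.6 in REG. MUT lay lowest, and only REG replicate 3 reached the WT range. MUT vs WT was -2.41 ± 0.44 (adjusted p = 0.00411), and REG vs MUT was 1.06 ± 0.44 and not called (adjusted p = 0.0848). Bmpr2, the type II receptor for BMPs, measured 43.9, 74.4 and 64.7 in the WT libraries, 13, 18.2 and 13.8 in the MUT libraries and 37.2, 59.8 and 56.1 in the REG libraries. MUT was below both other groups, which overlapped. The change was -1.98 ± 0.36 (adjusted p = 0.00415) in MUT vs WT and 1.73 ± 0.36 (adjusted p = 0.00661) in REG vs MUT. Tgfbr2, the type II receptor for TGF-beta, measured 45.5, 66.0 and 55.4 in WT, against 12.6, 25.7 and 11.4 in MUT and 45.5, 42.5 and 63.3 in REG. MUT again lay below, with replicate 2 the highest of the 3. It changed by -1.80 ± 0.40 (adjusted p = 0.00858) and 1.66 ± 0.40 (adjusted p = 0.011). Bmpr1a, a type I receptor for BMPs, measured 14.2, 23.1 and 21.5 in the WT libraries, 3.37, 6.43 and 5.97 in the MUT libraries and 10.3, 11.6 and 15.7 in the REG libraries. The MUT values were below all others, and REG replicate 3 alone reached the WT range. It changed by -1.85 ± 0.38 (adjusted p = 0.00648) and 1.23 ± 0.38 (adjusted p = 0.0297).

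Bmpr1b, the other BMP type I receptor on the list, was the lowest member per kb in WT and moved the opposite way. It measured 0.555, 0.649 and 0.497 in WT, against 2.26, 1.76 and 1.48 in MUT and 0.478, 0.213 and 0.295 in REG. The 3 groups were separated, with MUT highest. MUT vs WT was 1.22 ± 0.32 (adjusted p = 0.0171) and REG vs MUT -1.66 ± 0.32 (adjusted p = 0.00498). In the MUT libraries these values were 1.14, 1.47 and 0.887 times the receptor-gene background, and in WT 2.55, 3.60 and 2.32 times, so relative to background Bmpr1b was not above WT in any MUT library. Leaving out any WT or MUT library ended the MUT vs WT call of Bmpr1b (adjusted p = 0.0521 to 0.121). In REG vs MUT, Bmpr1a, Bmpr2, Acvr2a, Acvrl1 and Tgfbr2 rose. The calls of Tgfbr2 in both comparisons were lost without MUT replicate 1 or 3 (adjusted p = 0.0517 to 0.0775), and that of Bmpr1a in REG vs MUT without WT replicate 3, MUT replicate 1 or 3, or REG replicate 3 (adjusted p = 0.0509 to 0.189). In MUT vs WT, 5 of the 6 WT and MUT libraries each ended the call of Acvr1 (adjusted p = 0.0659 to 0.127) and of Acvrl1 (adjusted p = 0.0864 to 0.155) when left out. Leaving out any of the MUT libraries did so in REG vs MUT for Acvr2a (adjusted p = 0.0838 to 0.104) and Acvrl1 (adjusted p = 0.0611 to 0.0924). Called in no comparison were Acvr1b (10.7 ± 3.47 in WT, 21.1 ± 15.1 in MUT, 11.1 ± 6.74 in REG), Acvr2b (2.66 ± 0.805, 1.22 ± 0.844, 5.08 ± 4.70) and Tgfbr1 (22.3 ± 4.93, 14.1 ± 5.71, 27.5 ± 14.4). Tgfbr1 was called higher in REG vs MUT without REG replicate 2 (adjusted p = 0.0278) and Acvr2b without REG replicate 1 (adjusted p = 0.0436).

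Among the Smads and intracellular regulators, the inhibitory Smads Smad6 and Smad7 had the largest falls in MUT. Smad1, Smad3, Smad4, Smad6, Smad7, Smurf1, Skil and Tgif1 fell, with a class median of -2.03. Per kb, WT levels ran from 0.948 for Smad9 to 7.16 for Smad7. Smad7, the inhibitory Smad that blocks TGF-beta and BMP receptors, measured 29.7, 36.8 and 30.7 in the WT libraries, 5.60, 3.73 and 4.30 in the MUT libraries and 14.6, 12.4 and 26.4 in the REG libraries. The 3 groups did not overlap, with REG between WT and MUT. The change was -2.75 ± 0.37 (adjusted p = 0.00153) in MUT vs WT and 1.83 ± 0.37 (adjusted p = 0.00605) in REG vs MUT. Smad6, the inhibitory Smad that acts mainly on BMP signalling, measured 20.2, 20.1 and 17.7 in WT, against 4.77, 0.630 and 1.6 in MUT and 13.7, 8.93 and 10.7 in REG. The order was the same, and the MUT replicates were spread widely. In MUT, Smad6 was at 4.45, 0.912 and 1.77 times background. It changed by -3.19 ± 0.53 (adjusted p = 0.00296) and 2.39 ± 0.53 (adjusted p = 0.00846). Smad3, a receptor Smad of TGF-beta and activin signalling, measured 19.5, 29.7 and 29.9 in the WT libraries, 4.38, 4.48 and 4.25 in the MUT libraries and 13.4, 8.06 and 20.9 in the REG libraries. The MUT values were nearly equal and below all others. In MUT, Smad3 was at 2.38, 3.99 and 2.73 times background. It changed by -2.47 ± 0.40 (adjusted p = 0.00262) and 1.51 ± 0.40 (adjusted p = 0.016). Skil, the SnoN corepressor that binds Smads, measured 27.3, 40.7 and 33.5 in WT, against 9.23, 3.60 and 6.08 in MUT and 30.2, 17.8 and 31.7 in REG. MUT stood below, and WT and REG overlapped. It changed by -2.43 ± 0.42 (adjusted p = 0.00333) and 2.06 ± 0.42 (adjusted p = 0.006).

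In REG vs MUT, Smad1, Smad3, Smad6, Smad7, Smurf2 and Skil rose, with a class median of 1.34. The call of Smad3 was lost without MUT replicate 1 or 3 (adjusted p = 0.0758 to 0.079). The BMP receptor Smad Smad1 fell by 1.13 on the log2 scale in MUT vs WT, but was 0.0418 (adjusted p = 0.942) with total-read scaling. Its call, and those of Smurf1 and Tgif1, were each lost in MUT vs WT when any of 5 of the 6 WT and MUT libraries was left out (adjusted p = 0.0696 to 0.150, 0.0568 to 0.0836 and 0.0889 to 0.131). The REG vs MUT call of Smad1 was lost without MUT replicate 1 or 3 (adjusted p = 0.0622 to 0.0812), and that of Smurf2 without either of these or REG replicate 1 (adjusted p = 0.058 to 0.0838). Smurf2, chosen after its values were seen, differed within REG: 103 and 146 in replicates 1 and 2 and 21.9 in replicate 3, beside 34.2 to 48.6 in WT. REG replicates 1 and 2 are also the libraries with the high skeletal muscle sums given above, and the part of this in the result was not tested. Called in no comparison were Smad2 (8.83 ± 1.39 in WT, 6.01 ± 1.55 in MUT, 6.54 ± 3.87 in REG), Smad5 (17.9 ± 3.05, 4.96 ± 1.6, 9.995 ± 8.28) and Smad9 (5.09 ± 1.66, 3.60 ± 2.23, 5.21 ± 5.22). Without REG replicate 2, Smad5 was called lower in MUT vs WT (adjusted p = 0.00425) and higher in REG vs MUT (adjusted p = 0.0158).

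The extracellular antagonists split. Nog, Chrdl1, Fstl1, Fstl3 and Nbl1 fell in MUT and Grem1 rose, with a class median of -1.97. Per kb, WT levels ran from 0.497 for Chrd to 17.8 for Nbl1. Grem1 encodes Gremlin 1, a secreted protein that binds BMP2 and BMP4. It measured 5.92, 3.91 and 3.12 in the WT libraries, 14.1, 71.4 and 29.0 in the MUT libraries and 2.04, 1.30 and 3.61 in the REG libraries. Every MUT library lay above every WT and REG library, and the MUT replicates differed severalfold among themselves. The change was 2.78 ± 0.58 (adjusted p = 0.00707) in MUT vs WT and -3.63 ± 0.58 (adjusted p = 0.00261) in REG vs MUT, and both calls held under all 22 alternatives. The MUT values corresponded to 862, 715 and 1381 estimated reads, and to 10.2, 82.5 and 24.8 times the background of the same library. The order of the MUT libraries in Grem1 was also their order in the marker sums: in replicates 1, 2 and 3 these were 44.9, 246 and 109 for keratinocytes, nearly all Trp63, 33.8, 80.2 and 52.0 for neurons and 286, 1581 and 377 for B cells. The part of such cells in the Grem1 result was not tested. MUT replicate 2, where Grem1 was highest, has a library name in the labels of another form than the names of the other MUT libraries, and what that marks is not stated.

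Fstl1, a secreted glycoprotein of the follistatin-like family that binds BMPs, measured 46.3, 86.4 and 87.2 in WT, against 9.07, 6.05 and 5.86 in MUT and 71.9, 58.2 and 68.2 in REG. The REG values all lay inside the WT range, and MUT was far below both. It changed by -3.29 ± 0.37 (adjusted p = 0.000923) in MUT vs WT and 3.20 ± 0.37 (adjusted p = 0.00109) in REG vs MUT. Nog encodes Noggin, the BMP antagonist of open sutures. It measured 3.19, 3.61 and 4.84 in the WT libraries, 0.715, 0.250 and 0.715 in the MUT libraries and 0.667, 0.347 and 1.5 in the REG libraries. Both Twist1+/- groups lay wholly below WT and overlapped each other. MUT vs WT was -2.22 ± 0.43 (adjusted p = 0.00534), and REG vs MUT was 0.31 ± 0.43 (adjusted p = 0.609). In MUT, Nog was at 1.24, 0.606 and 1.46 times background, and in REG at 14.5, 6.92 and 27.2 times. Fstl3, which binds activins and myostatin, measured 2.91, 5.27 and 2.77 in WT, against 0.551, 0.599 and 0.715 in MUT and 5.26, 7.87 and 1.96 in REG. MUT lay below the other groups, and WT and REG overlapped. In MUT, Fstl3 was at 0.670, 1.09 and 1.03 times background. It changed by -1.97 ± 0.48 (adjusted p = 0.0128; 0.0523 to 0.0617 without WT replicate 2 or MUT replicate 1) and 2.27 ± 0.48 (adjusted p = 0.00685). Of the Fstl3 exon bases, 47.3% overlap Prss57 on the opposite strand, and the strandedness of the counting is not given in the sources used here. In REG vs MUT, Fstl1, Fstl3, Bambi and Nbl1 rose, with a class median of 1.52. The calls of Bambi and Nbl1 were lost on leaving out any of 7 libraries (adjusted p = 0.0562 to 0.165) and any of 6 (adjusted p = 0.0504 to 0.132), and that of Chrdl1 in MUT vs WT without any WT library or MUT replicate 1 (adjusted p = 0.0517 to 0.0649). Called in no comparison were Chrd (3.11 ± 0.857 in WT, 3.03 ± 1.43 in MUT, 2.26 ± 1.64 in REG) and Fst (4.07 ± 1.2, 3.24 ± 1.52, 3.13 ± 2.46).

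The latency proteins had the lowest class median in MUT vs WT, -2.84, and 3 of 4 fell. Per kb, WT levels ran from 2.05 for Ltbp1 to 9.34 for Ltbp2. Ltbp2, which binds fibrillin and, unlike its relatives, is not known to bind latent TGF-beta, measured 58.8, 84.6 and 85.8 in the WT libraries, 3.15, 1.14 and 5.33 in the MUT libraries and 40.6, 25.1 and 60.6 in the REG libraries. MUT was below all other libraries, and REG replicate 3 alone entered the WT range. The change was -4.60 ± 0.52 (adjusted p = 0.000933) and 3.68 ± 0.52 (adjusted p = 0.00184). The MUT values were 1.16, 0.710 and 2.33 times the background, at 192, 10.5 and 253 estimated reads. Ltbp3, which carries latent TGF-beta in bone, measured 63.0, 88.6 and 72.9 in WT, against 9.96, 15.6 and 9.47 in MUT and 36.7, 20.5 and 61.8 in REG. The groups formed 3 separate ranges, with REG in the middle. It changed by -2.66 ± 0.44 (adjusted p = 0.00282) and 1.63 ± 0.44 (adjusted p = 0.0175). Ltbp4, which binds latent TGF-beta1, measured 32.4, 52.1 and 43.9 in the WT libraries, 4.32, 4.38 and 6.03 in the MUT libraries and 8.54, 18.0 and 32.2 in the REG libraries. The ranges were again separate, and REG was spread widely. It changed by -3.02 ± 0.47 (adjusted p = 0.00237) and 1.74 ± 0.47 (adjusted p = 0.0181). In REG vs MUT, the call of Ltbp3 was lost without MUT replicate 1 or 3 (adjusted p = 0.0868 to 0.0916) and that of Ltbp4 without any of the MUT libraries (adjusted p = 0.053 to 0.081). Ltbp1 was called in no comparison, at 21.9 ± 4.34 in WT, 10.6 ± 2.03 in MUT and 19.4 ± 12.1 in REG, but without REG replicate 2 it was called lower in MUT vs WT (adjusted p = 0.0275) and higher in REG vs MUT (adjusted p = 0.0187).

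Set against the background of their own library, the members were close to it in MUT. The median ratio of a member's value to the value that the background density would give at its exon length was 61.9 to 121 in WT libraries, 2.34 to 3.55 in MUT and 81.6 to 113 in REG. In MUT, 16 members were under 3 times background in all 3 libraries and 30 under 5 times, and 4 were at 5 times or more in all 3. Of the 31 members called lower, 10 were under 3 times background in every MUT library and 17 under 5 times. The ratios were not taken over all genes, so closeness to background is not shown to be particular to the members. The background value itself was higher in MUT, so an equal value gave a lower ratio there. For the exon length of Bmp2 it was 0.756 to 1.19 in MUT, 0.118 to 0.141 in WT and 0.0865 to 0.0928 in REG. With the background subtracted and the rest scaled to total reads, 15 of 50 members tested fell in MUT vs WT (all genes: 3.46%) and 2 rose (13.6%), and the median was -1.21 over members and 0.26 over all genes. For REG vs MUT the same setting gave 8 members higher (3.32% of all genes) and 3 lower (12.5%). Raising the low-value filter by a factor of 10 left 44 members, of which 30 fell (68.2%, beside 34.8% of 11449 genes) and 1 rose (7.95%) in MUT vs WT, with medians of -1.99 and -0.99. Of the 44, 24 rose (24.3% of all genes) and 1 fell (7.62%) in REG vs MUT. This filter asks for 3 libraries of any group, so a gene can pass through WT and REG alone, as Gdf10 does. With it, the share of all genes called lower in MUT vs WT went from 14.6% to 34.8%. It therefore favours genes low in MUT and cannot decide whether members stand above background. In MUT vs WT, the median of the members was below that of all genes with background subtraction and with the stricter filter, by amounts that differed.

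**Figure D3:**
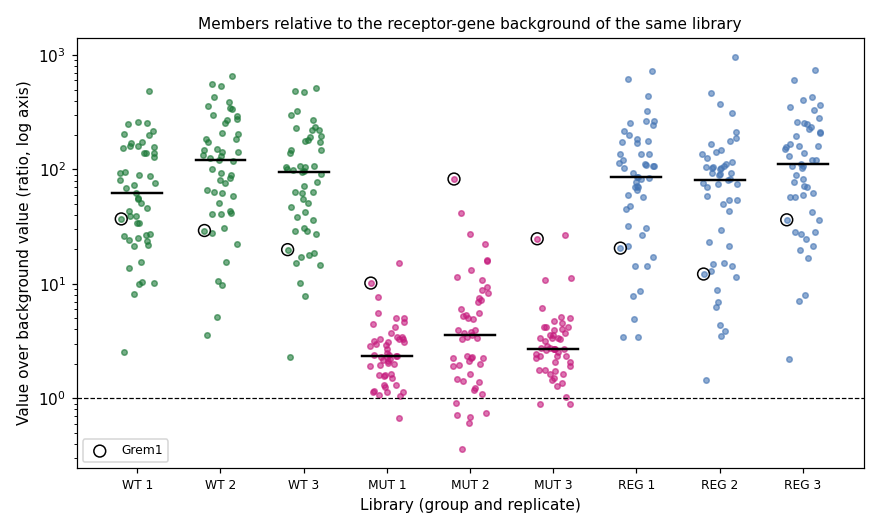
Ratio of each gene's value to the receptor-gene background of the same library (log axis), 1 point per gene and 1 column per library, with a bar at the median and a dashed line at 1. The medians are 61.9 to 121 in WT, 2.34 to 3.55 in MUT and 81.6 to 113 in REG, and the circled Grem1 lies at 10.2, 82.5 and 24.8 in MUT.

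**Figure D4:**
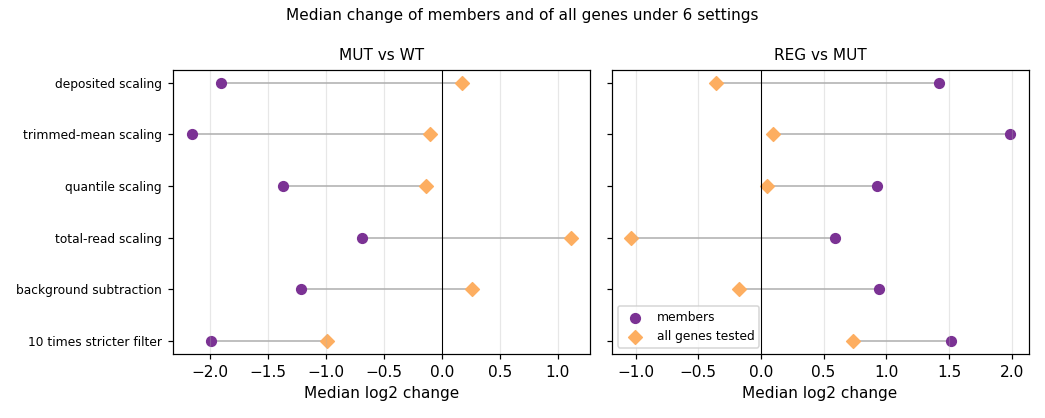
Median log2 change of the members (circles) and of all genes tested (diamonds) under 6 settings, with MUT vs WT on the left and REG vs MUT on the right. The members lie below all genes in every row of the left panel (-1.90 against 0.18 with the deposited scaling) and above them in every row of the right panel (1.42 against -0.36).

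Between REG and WT no member was called, and no gene of the 29107 was (0.0%). At an unadjusted p under 0.05, limma gave 10 members and 9.47% of all genes. The median log2 change was -0.60 over the members and -0.18 over all genes. The members of smallest p were Nog (-1.91 ± 0.43, adjusted p = 0.49), Tgfbr3 (-1.36 ± 0.44, adjusted p = 0.50) and Gdf6 (-0.99 ± 0.35, adjusted p = 0.508), with the library values given above. Nog and Gdf6 were lower in every REG library than in every WT library, and Tgfbr3 overlapped. Without REG replicate 3, Nog (-2.29, adjusted p = 0.0213) and Tgfbr3 (-1.74, adjusted p = 0.0459) were called lower, beside 413 genes called higher and 1203 lower.

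The REG replicates did not agree among themselves. In REG replicate 3, 24 members were below the WT range, 21 inside and 6 above, whereas replicate 1 had 35 below, 10 inside and 6 above, and replicate 2 had 34, 8 and 9. The median log2 difference from the WT mean was -0.66, -0.89 and -0.26 in replicates 1, 2 and 3. Neither measure was taken over all genes, so a split of the members cannot be told from a split of the whole libraries. In the labels, REG replicates 1 and 2 carry library numbers that repeat those of WT libraries, and REG replicate 3 a number that follows on from WT and MUT; what these numbers mark is not stated. Inhba, which encodes the beta A subunit of activin and was chosen after its values were seen, shows the split, at 47.8, 27.9 and 8.74 in REG and 5.03, 17.1 and 24.2 in WT. With REG replicate 3 as the sole REG library, 2 of the 51 members changed sign in REG vs MUT and 9 in REG vs WT. None of these changes was called in the main fit.

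Other genes of the pathway, 91 of them measured, are given by role beside the shares of all genes called, 14.6% lower and 20.5% higher in MUT vs WT, and 11.8% higher and 24.8% lower in REG vs MUT. The roles were not tested against each other. Of 28 target genes, 22 fell and none rose in MUT vs WT (median -2.41), and 19 rose and 1 fell in REG vs MUT (median 1.94). Ccn2, a matricellular TGF-beta target, was 77.2 ± 17.1 in WT, 5.62 ± 2.21 in MUT and 44.2 ± 21.7 in REG, and Fn1, fibronectin, was 413 ± 153, 49.1 ± 12.3 and 429 ± 40.2. Of 12 other intracellular regulators, 5 fell and 1 rose in MUT vs WT, and 6 rose and 2 fell in REG vs MUT. The corepressor Ski was at 73.7 ± 20.2, 6.37 ± 0.629 and 42.2 ± 17.1, and Pmepa1, a TGF-beta-induced inhibitor, at 36.3 ± 11.7, 6.36 ± 1.71 and 31.4 ± 5.69. Of 25 other extracellular modulators, 9 fell and 3 rose, and then 6 rose and 8 fell. Htra1, a secreted protease that acts on TGF-beta family ligands, stood at 96.2 ± 35.6, 3.56 ± 1.18 and 67.6 ± 8.71. Thbs1, an activator of latent TGF-beta, measured 177 ± 71.6, 14.3 ± 3.55 and 94.0 ± 42.7, and Htra3, a protease of the same family as Htra1, 11.5 ± 3.51, 2.68 ± 0.867 and 16.5 ± 5.47.

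Of 18 ligands outside the 51, 6 rose, 2 fell and 10 were not called in MUT vs WT, and 1 rose, 9 fell and 8 were not called in REG vs MUT. In MUT vs WT, Gdf2, Mstn, Bmp8b, Bmp10, Inhbc and Inhbe rose, and Gdf11 and Lefty1 fell. Bmp8b was 0.532 ± 0.284 in WT, 2.73 ± 1.09 in MUT and 0.217 ± 0.147 in REG, Bmp10, a ligand of the heart, 0.312 ± 0.180, 1.46 ± 0.0854 and 0.514 ± 0.238, and Inhbe, an activin subunit of the liver, 0.646 ± 0.153, 2.67 ± 0.695 and 0.339 ± 0.307. In the MUT libraries these 3 were at 1.02 to 3.46 times background, and in WT at 0.926 to 5.8 times. Of 8 other receptors and co-receptors measured, 2 fell and 2 rose in MUT vs WT, and 2 rose and 2 fell in REG vs MUT. Neo1, a receptor for repulsive guidance molecules that also bind BMPs, was 53.0 ± 17.4, 5.62 ± 1.41 and 31.1 ± 10.5, and Eng, the endothelial co-receptor endoglin, 29.7 ± 7.09, 3.99 ± 2.37 and 23 ± 10.5. Markers of the suture's own cells fell alongside: 7 of 9 osteoblast markers and 4 of 5 suture mesenchyme markers were called lower in MUT vs WT (all genes: 14.6%). Their sums were 25109 to 45263 and 105 to 155 in WT, and 1365 to 14851 and 18.6 to 42.3 in MUT. In REG the sums were 13679 to 34227 and 66.6 to 101, with 5 of 9 and 1 of 5 called higher in REG vs MUT (all genes: 11.8%). Of 5 osteoclast markers, 1 was lower in MUT vs WT and 4 were higher in REG vs MUT, with sums of 358 to 738 in WT, 106 to 292 in MUT and 780 to 1611 in REG. Several markers are also target genes of the pathway, and the part of these cells in the results on the members was not tested.

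In the authors' deposited table, which holds their own test, 29 members were lower and 1 higher at a false discovery rate under 0.05 in MUT vs WT, beside 8.22% and 17.3% of all 43644 genes. For REG vs MUT the authors' deposited table has 26 members higher and 3 lower, beside 7.69% and 33.8%, and for REG vs WT none. Its log2 ratio for Grem1 is 3.14 in MUT vs WT and -4.04 in REG vs MUT, and for Ltbp2 -4.57 and 3.72. Some calls of the limma fit are absent from the authors' test. These are Acvrl1 (authors' FDR 0.0712), Smad1 (0.0653) and Bmpr1b (0.0864) in MUT vs WT, and Gdf5 (0.0543) in REG vs MUT. Bmp3 (authors' FDR 0.0408) and Inhba (0.0458) are called higher in REG vs MUT by the authors' test only.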

How the data were processed

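Single-end RNA-seq (75 cycles, NextSeq500) covered 9 libraries, 3 per group. The submitters' processing notes name STAR 2.6.1d, Partek and the build mm10. How reads were counted and normalized, on which annotation and with what strandedness, is not given in the sources used here. Genes are not named in the signal matrix that the authors deposited. Its columns were assigned in the order of the authors' gene table after the table's 4 summary statistics matched for 43644 of 43644 genes (relative tolerance 1e-06; the set of 4 was unique for 43480). Read from the values, the deposited signal is (estimated reads + 1) times a library factor, with the 75th percentile near 2.76 in each library. The authors' table also gives deposited p-values and FDR and deposited log2 ratios.

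The values are not whole counts, so limma 3.58.1 in R 4.3.3 was fitted to log2(value + 0.367), a pseudocount of 1 millionth of the median library total, over all 9 libraries with the group as the term. A gene was tested if 3 or more libraries reached 0.367 (29107 genes), with two-sided p-values adjusted by Benjamini-Hochberg over all of them. The fit was tested on simulated data for MUT vs WT over 29107 genes, 200 of them changed: it called 11% of those changed 4-fold and 36% of those changed 8-fold, with 1 false call. In the data, 4261 genes were called lower and 5964 higher, far more than the simulation changed. The adjustment for multiple tests therefore differs, and the simulated rates do not carry over to the data. The labels do not say that libraries are separate animals, so p-values reflect only the spread among them, which may be technical. An exact permutation test of 3 against 3 cannot go below 0.1 and was not used. Background and per-kb levels used exon lengths of GENCODE M21 (GRCm38); promoters came from RefSeq (GRCm38.p6).

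The members and gene lists were chosen with earlier results of these data known. Per-library values are given, in each role class, for the 3 members of smallest p in MUT vs WT and in REG vs MUT, for members called against the main direction and for the 3 of smallest p in REG vs WT. Members called in no comparison are given as group means, and other lists by count with the 2 of smallest p, except that a target gene so chosen is not reported here. Alternatives were other scalings, filters, pseudocounts, a trend, fewer groups, each library left out, and a replicate block. The labels' 3 pairs and 1 week after induction are explained nowhere, and no pairing was used. Tables were made with pandas 2.3.3 and numpy 2.4.6, and figures with matplotlib 3.10.9, under Python 3.11.15.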

Additional observations from a re-analysis of the deposited data

How the results depend on the processing

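The counts of called members depended on the scaling and on the MUT libraries. In MUT vs WT, against 31 lower and 2 higher, quantile scaling gave 19 lower (8.87% of all genes), background subtraction 15 lower, total-read scaling 13 lower and 5 higher, the stricter filter 1 higher, and MUT replicate 2 as the sole MUT library 13 lower (4.49%) and 1 higher (3.29%); there the lone library is assumed to vary like the other groups. Leaving out each library in turn gave 22 to 35 lower (6.53% to 19.4%) and 1 to 2 higher (6.33% to 25.1%). In REG vs MUT, against 24 higher and 4 lower, the counts of higher members were 9 with quantile scaling (6.61%), 6 with total-read scaling, 8 after background subtraction, 13 with only the 2 groups compared (6.68%), 7 with MUT replicate 2 alone (3.07%) and 12 to 32 with each library left out (6.15% to 15%). The stricter filter gave 1 lower (7.62% of all genes). In REG vs WT, leaving out REG replicate 3 gave 2 lower in place of 0 (4.18% of all genes), and each other alternative gave 0 (0.0%). The cause was not tested. The stricter filter tests fewer genes, which can pass through WT and REG alone, and the lone-library and left-out fits use fewer samples. Of the called changes of members, that of Smad1 in MUT vs WT was the 1 to change sign, at 0.0418 with total-read scaling; of the changes not called, 11 in MUT vs WT and 8 in REG vs MUT changed sign there, and 7 and 6 after background subtraction, none of them called with the new sign. Under the 22 alternatives, calls that always held were those of Gdf10, Tgfb2, Tgfb3, Inhbb, Smad7, Grem1, Fstl1, Ltbp2 and Ltbp4 in MUT vs WT, and of Gdf10, Tgfb2, Grem1, Fstl1 and Ltbp2 in REG vs MUT. Total-read scaling moved the median of all genes in MUT vs WT from 0.18 to 1.11 and trimmed-mean scaling to -0.10. With a replicate block from the title numbers, 29 members were lower (12.9% of all genes) and 2 higher (17.2%) in MUT vs WT. In REG vs MUT, 24 were higher (10.4%) and 4 lower (21.8%), and in REG vs WT 0 were called (0.0%). The block lost the calls of Acvrl1 (adjusted p = 0.0652) and Tgif1 (0.0646) in MUT vs WT and of Bambi (0.0561) in REG vs MUT. It gained that of Bmp3 in REG vs MUT (0.0487). Correlations of deviations between libraries of the same number ran from -0.196 to 0.101, so the numbers were not taken to pair the samples. Low depth in MUT limits low values: Ltbp2 rests on 10.5 estimated reads in MUT replicate 2. Other called members rest on fewer there, with Smad6 at 5.32, Fstl3 at 5, Bmp2 at 4.22 and Nog at 1.51.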
